A study of Mus musculus with 8 samples.

Results

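Rab genes encode small GTPases that mark membrane compartments and direct vesicle traffic between them. The genes described here are the 59 whose symbol in the array annotation is Rab followed by digits and at most 1 final letter, out of 18193 genes with a single symbol. Each was represented by its probe set with the highest mean over all 8 arrays, and the 59 genes had 132 probe sets in all. The tissue was choroid plexus of the fourth ventricle from mouse embryos at embryonic day 13, compared between 4 arrays labelled Otx2 k.o. and 4 labelled wildtype, with littermates in both groups and a mixed strain background. The labels call the knockouts an Otx2 deficient strain. How the gene was inactivated, which part of it was deleted and how many embryos made up a sample were not stated. Neither group received a treatment, and sex was left undetermined.

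A Rab protein is active on a membrane when it holds GTP and inactive when it holds GDP. Exchange factors load GTP, GTPase-activating proteins end the active state, and GDP dissociation inhibitors carry the prenylated, inactive protein through the cytosol. The active form recruits effectors such as motors, tethers and coiled-coil adaptors. The choroid plexus epithelium secretes cerebrospinal fluid, carries many transporters on its apical surface and bears motile cilia, all of which depend on polarized vesicle traffic.

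Values are log2 levels made by the authors with RMA, which equalises the arrays' distributions. Array medians lay between 5.85 and 5.90. Otx2 itself read 12.38, 12.46, 12.44 and 12.48 on the 4 arrays labelled knockout and between 11.85 and 12.05 on the 4 wildtype arrays, and so did not fall (log2 fold change 0.47, SE 0.06, limma adjusted p = 0.000648). Whether its probes lie inside the deleted part is unknown here, so the value checks nothing about the deletion, every direction given rests on the labels, and the arrays are called knockout-labelled. Ttr, the transthyretin gene and a defining marker of the tissue, was high on all arrays, between 14.14 and 14.27. Not every epithelium marker was high. Kl lay between 4.05 and 4.45 on the knockout-labelled arrays and between 5.18 and 5.72 on the wildtype arrays. The 15 measured epithelium markers had list means of 10.14 to 10.35 in the knockout-labelled group and 11.13 to 11.25 in the wildtype group, with 13 lower and 1, Otx2, higher. Of 11 multiciliated cell markers 8 were lower, with list means of 6.85 to 7.12 against 7.72 to 7.82. Of 11 macrophage markers 7 were higher, with list means of 8.53 to 9.07 against 8.01 to 8.22, and of 12 stroma and mural cell markers 8 were higher and 2 lower, with list means of 10.57 to 10.80 against 10.24 to 10.28. The 13 neuron markers varied widely inside both groups, from 7.69 to 9.15 and from 7.38 to 8.92, and 0 passed. Of 9 endothelial markers 3 were lower and 1 higher, with list means of 9.03 to 9.27 against 9.20 to 9.43. Of 6 erythroid markers 1 was lower and 0 higher, with list means of 10.06 to 10.37 against 10.27 to 10.40. In such bulk tissue, fewer cells of a type and less RNA per cell cannot be told apart.

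Most Rab genes differed little between the groups, and a few members changed clearly in opposite directions. Of 59 genes, 15 passed limma at an adjusted p under 0.05, which is 25.4% against 19.6% of all genes tested. Among these 9 were higher in the knockout-labelled arrays (15.3%, against 7.84% of all genes) and 6 were lower (10.2%, against 11.7%). Among the 38 Rab genes above the median level of all genes 11 were called (28.9%, against 28.3% of all genes above that level), and among the 21 others 4 were called (19.0%, against 10.8%). The median log2 fold change was 0.03 over the Rab genes and 0.00 over all genes, and the median size without sign was 0.12 in both. The count of genes called higher changed when single arrays were left out, in fits that also had fewer arrays to test with. It was 5 without knockout-labelled replicate 3, 3 without knockout-labelled replicate 4, and 4, 5 and 4 without wildtype replicates 2, 3 and 4. The count called lower was 3 without wildtype replicate 3, 4 without knockout-labelled replicate 1 or 2, and 4 without wildtype replicate 2 or 4. The share of all genes called in these smaller fits is not given here, so a general loss of calls cannot be told from one in the Rab genes.

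The 2 groups of arrays did not overlap in 18 Rab genes (30.5%, against 24.3% of all genes), 11 of them higher (9.98% of all genes) and 7 lower (14.4% of all genes). These were 14 of the 15 called genes, together with Rab10, Rab13, Rab33b and Rab5a, which were not called. A fold change of at least 2 was reached by 3 members, Rab20, Rab15 and Rab30, all of them called, where 1.8% of all genes did so and were called. Of the 44 Rab genes that were not called, 41 had a 95% interval of the log2 fold change inside 0.5 units on either side of 0. The other 3 were Rab42, Rab33a and Rab3c.

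**Figure D1:**
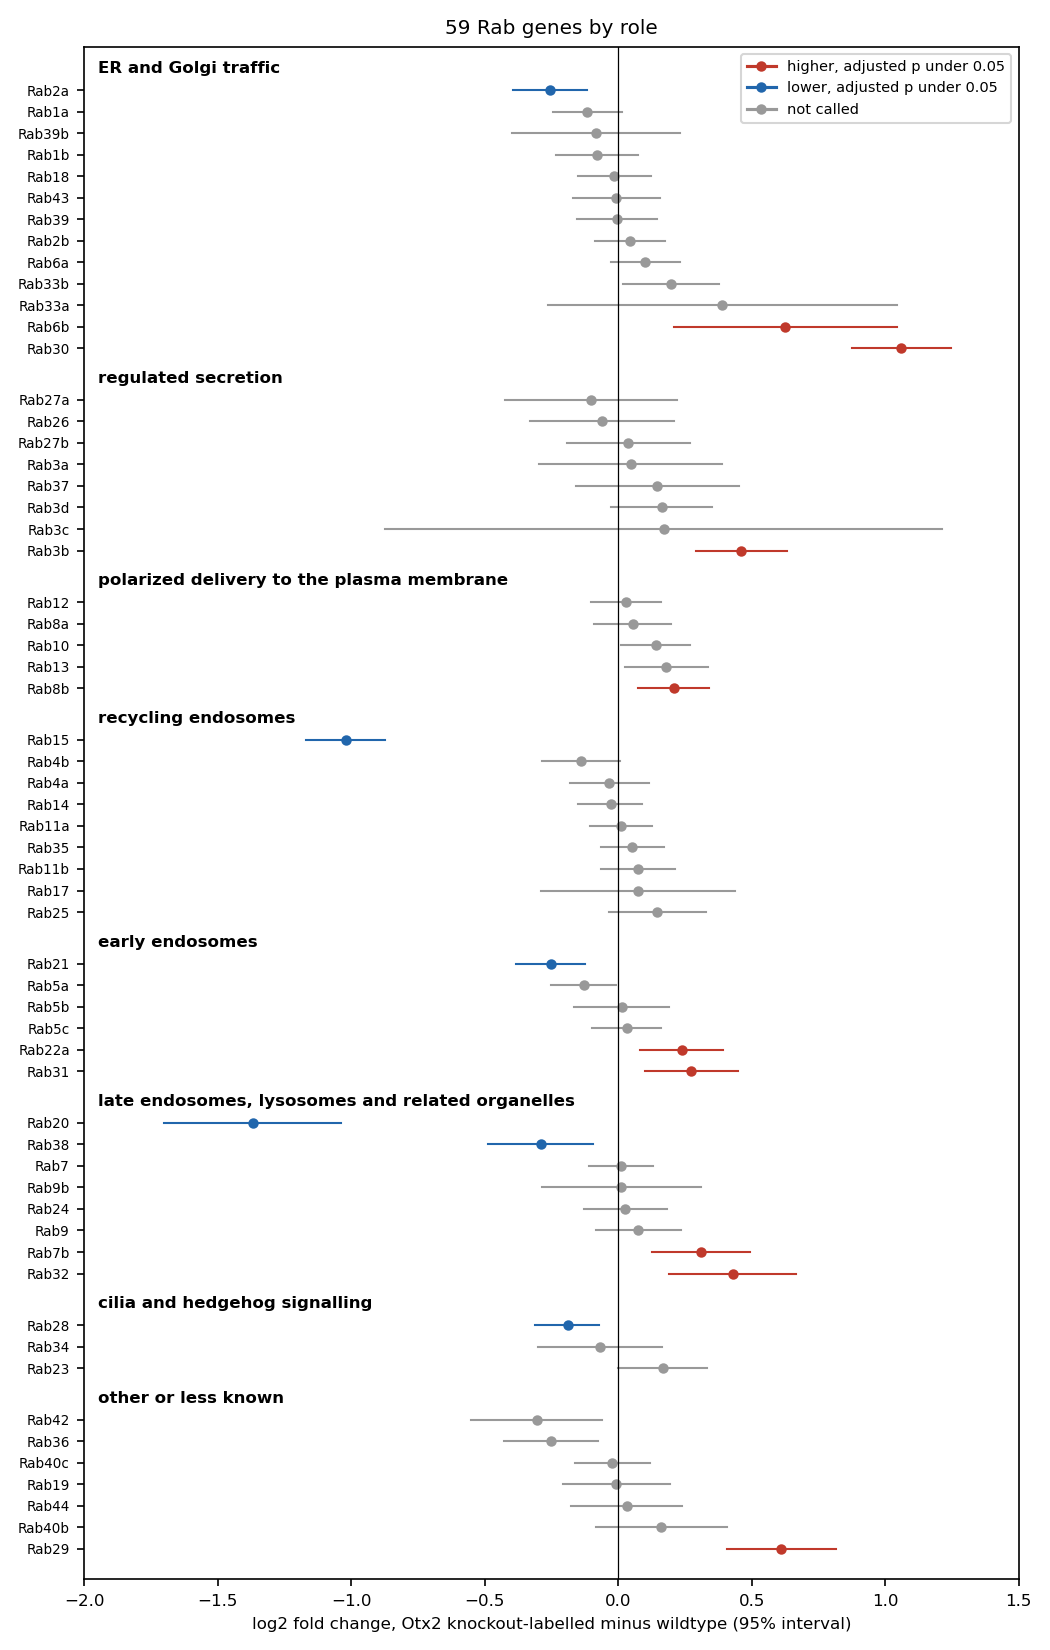
Log2 fold changes (knockout-labelled minus wildtype, horizontal axis) with 95% intervals for all 59 Rab genes, grouped by role. Red points were called higher, blue points lower and grey points not called. Rab20 and Rab15 lie apart on the left at -1.37 and -1.02, and Rab30 on the right at 1.06.

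The sequences upstream of the start sites of the 2 genes that fell most are shown, chosen after their values were seen, because Otx2 is a homeodomain factor that binds the bicoid-type motif TAATCC. They are the 250 bases before an annotated start in RefSeq (build GRCm38.p6), 5′ to 3′ on the gene's strand, with the homeodomain core TAAT or its complement ATTA in capitals. The Rab20 window is chr8:11478641-11478890, minus strand, and the Rab15 window, for the most upstream of its 4 annotated starts, is chr12:76822525-76822774, minus strand.
Rab20: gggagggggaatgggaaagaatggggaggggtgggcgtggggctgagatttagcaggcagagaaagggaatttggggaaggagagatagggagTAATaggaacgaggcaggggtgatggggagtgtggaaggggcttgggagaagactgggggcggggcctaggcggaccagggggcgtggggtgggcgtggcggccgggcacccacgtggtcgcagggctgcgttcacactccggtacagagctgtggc
Rab15: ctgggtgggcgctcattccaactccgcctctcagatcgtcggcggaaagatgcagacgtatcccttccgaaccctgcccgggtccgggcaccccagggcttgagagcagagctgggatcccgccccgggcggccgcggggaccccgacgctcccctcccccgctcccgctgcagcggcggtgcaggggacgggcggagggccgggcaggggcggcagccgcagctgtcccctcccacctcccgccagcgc

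The printed Rab20 window held 1 such core and the printed Rab15 window 0, while the windows of the other 3 annotated Rab15 starts each held 1. RefSeq windows of 250 bases before to 50 after a start were matched for 48 of the 59 Rab genes (60 windows). TAATCC, on either strand, was in the windows of 2 of these genes, Rab42 and Rab43, neither of them called, and in 0 of the 11 called genes with a window. Counted by window, it was in 3 of the 60 Rab windows and in 7.06% of all 32851 windows. The shorter core, which lies inside TAATCC, was in 22 of the 60 Rab windows, while 58.0% of all windows held it. Counted by gene, the shorter core was in windows of 6 of those 11 called genes. These are counts of letters in a short window and say nothing of binding.

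Rab20, which acts on endosomes and phagosomes, had the largest fall. It read 5.23, 5.83, 5.94 and 5.90 on the knockout-labelled arrays and 7.07, 7.01, 7.05 and 7.25 on the wildtype arrays. Every knockout-labelled array lay more than 1 unit under every wildtype array, and replicate 1 lay lowest. The log2 fold change was -1.37 (SE 0.15, adjusted p = 0.000206, limma), or 2.58-fold lower. Rab15, which acts between early and recycling endosomes, read 8.86, 9.00, 8.83 and 8.99 against 9.86, 10.01, 9.95 and 9.95. Its spread was small, with SDs of 0.09 and 0.06 (n = 4 each), and the groups stood far apart. The log2 fold change was -1.02 (SE 0.07, adjusted p = 1.54e-05), or 2.03-fold lower. Both calls held in each of the 8 fits that left out 1 array, in which the change lay between -1.44 and -1.21 for Rab20 and between -1.05 and -0.99 for Rab15. Each of these genes has 1 probe set, so no second probe set bears on it.

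**Figure D2:**
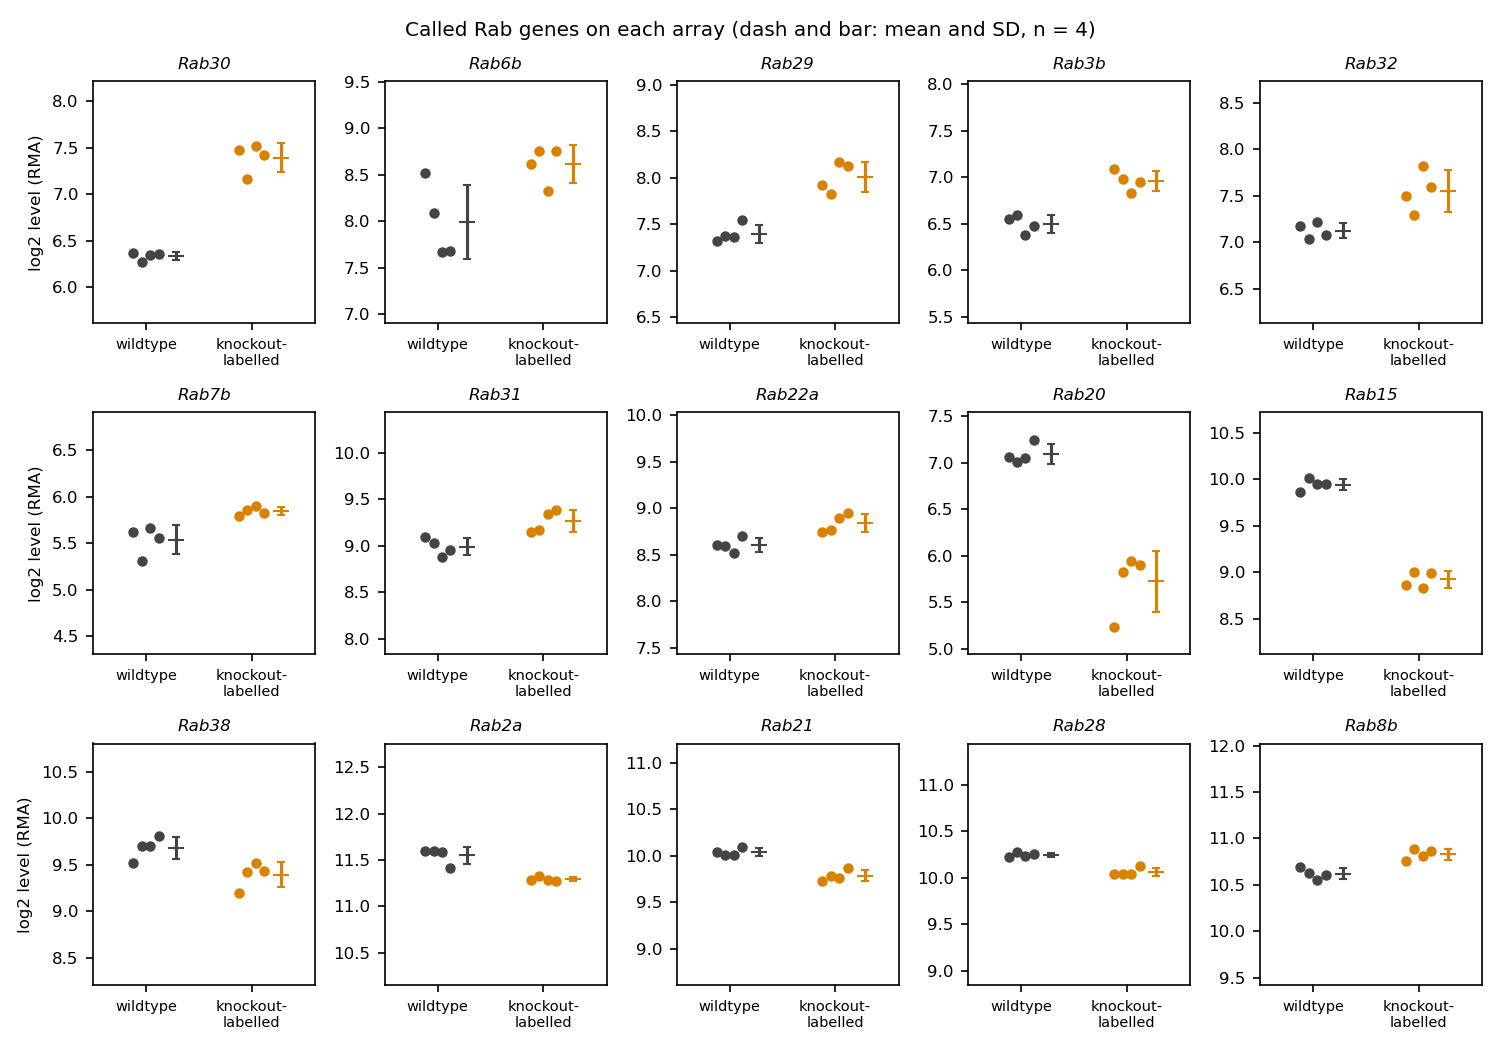
Log2 level of each of the 15 called Rab genes on every array, in panels of equal height; points are arrays, the dash and bar give mean and SD (n = 4). The groups do not overlap in any panel except that of Rab6b, where wildtype replicate 1 (8.52) lies above knockout-labelled replicate 3 (8.33).

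Among the members of ER and Golgi traffic, 2 of 13 rose, 1 fell and 10 did not pass, with a median log2 fold change of 0.00. Beside this and the other role counts, 7.84% of all genes were called higher and 11.7% lower. Rab30, a Golgi protein, had the largest rise of all Rab genes. It read 7.47, 7.16, 7.52 and 7.43 on the knockout-labelled arrays and 6.37, 6.27, 6.34 and 6.35 on the wildtype arrays. The lowest knockout-labelled array lay well above the highest wildtype array. The log2 fold change was 1.06 (SE 0.08, adjusted p = 3.59e-05, limma), or 2.08-fold, and 1.02 to 1.14 in the fits without 1 array. Its second probe set rose by 0.81 in a fit over all 34945 probe sets with 1 gene.

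Rab6b, the form of the Golgi protein Rab6 that is most abundant in neurons, read 8.62, 8.76, 8.33 and 8.76 against 8.52, 8.09, 7.67 and 7.68. Its groups overlapped and its wildtype spread was the wider (SD 0.40 against 0.20). The log2 fold change was 0.63 (SE 0.19, adjusted p = 0.0427), or 1.54-fold. The call held only without knockout-labelled replicate 3 (adjusted p = 0.0358) or wildtype replicate 1 (0.00508) and was lost in the other 6 fits without 1 array (adjusted p up to 0.119). Its 3 other probe sets gave 0.53, 0.56 and 0.29 and did not pass. Rab6a, the ubiquitous form, read 10.70, 10.63, 10.54 and 10.61 against 10.56, 10.54, 10.48 and 10.49, a log2 fold change of 0.10 that did not pass (adjusted p = 0.276).

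Rab2a, which acts in transport between the ER and the Golgi, read 11.29, 11.33, 11.29 and 11.27 on the knockout-labelled arrays and 11.60, 11.59, 11.59 and 11.41 on the wildtype arrays. All knockout-labelled arrays lay lower, and wildtype replicate 4 lay closest to them. Its log2 fold change was -0.26 (SE 0.06, adjusted p = 0.018), or 1.19-fold lower. The call was lost without wildtype replicate 2 (adjusted p = 0.0607) or 3 (0.0529). Of its 6 other probe sets 4 were called lower as well, with log2 fold changes from -0.34 to -0.26. Rab2b, its close relative, read 8.27, 8.31, 8.25 and 8.24 against 8.25, 8.31, 8.16 and 8.18 and gave 0.04 (95% interval -0.09 to 0.17, adjusted p = 0.694).

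The remaining genes of this role, Rab1a, Rab1b, Rab18, Rab33a, Rab33b, Rab39, Rab39b and Rab43, did not pass. Rab1a and Rab1b, which act at the exit from the ER, gave -0.12 and -0.08. Rab33a had the widest interval among them, from -0.26 to 1.04 around a log2 fold change of 0.39, with arrays from 6.82 to 7.81 in the knockout-labelled group and from 6.34 to 7.67 in the wildtype group.

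Of the 8 Rab genes of regulated secretion, 1 rose, 0 fell and 7 did not pass (limma, adjusted p under 0.05), and an unadjusted p under 0.05 was reached by the 1 that rose. Rab3b, which acts on secretory vesicles near the plasma membrane, read 7.09, 6.98, 6.83 and 6.95 on the knockout-labelled arrays and 6.55, 6.60, 6.38 and 6.48 on the wildtype arrays. The groups did not overlap. Rab3b thus gave 0.46 on the log2 scale (SE 0.08, adjusted p = 0.00229, limma), or 1.38-fold, and the call held in all 8 fits without 1 array (0.42 to 0.50).

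The other Rab3 genes did not pass. Rab3a, the form best known from synaptic vesicles, read 9.44, 10.14, 9.50 and 9.51 against 9.70, 9.75, 9.50 and 9.44, with knockout-labelled replicate 2 apart from the rest. Rab3c read 6.43, 7.24, 5.70 and 6.47 against 7.35, 6.69, 6.06 and 5.06, the widest spread of any Rab gene, and its interval ran from -0.87 to 1.21. Rab3d, known from exocrine granules, read 6.89, 7.07, 7.21 and 7.16 against 6.78, 6.97, 7.01 and 6.92, a log2 fold change of 0.16 (adjusted p = 0.229). One dimmer probe set of Rab3d was called higher (0.38). Rab27a and Rab27b, which tether secretory granules and melanosomes through effectors such as Myrip, gave -0.10 and 0.04. Rab26 and Rab37, which act on secretory granules, gave -0.06 and 0.15.

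Of the 5 Rab genes of polarized delivery to the plasma membrane 1 rose and 4 did not pass, and all 5 log2 fold changes were above 0, with a median of 0.14. Rab8b, which acts in delivery to the plasma membrane and is a relative of the ciliary Rab8a, read 10.76, 10.88, 10.81 and 10.87 against 10.69, 10.63, 10.56 and 10.61, with no overlap. Its log2 fold change was 0.21 (SE 0.06, adjusted p = 0.0367, limma), with an adjusted p of 0.067 in the fit blocked on replicate number. The call held only without replicate 1 of either group and was lost in the other 6 fits without 1 array (adjusted p up to 0.0988). Its dimmer probe set gave -0.01 and did not pass, and the mean of both sets gave 0.10 (adjusted p = 0.249). Rab10, Rab13, Rab12 and Rab8a gave 0.14, 0.18, 0.03 and 0.05. The groups of Rab10 and of Rab13 did not overlap.

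Of the 9 recycling endosome genes 1 fell, 0 rose and 8 did not pass. The gene that fell was Rab15. Rab11a and Rab11b, the main GTPases of recycling endosomes and the partners of Myo5b and the Rab11fip effectors, gave log2 fold changes of 0.01 (95% interval -0.11 to 0.13) and 0.07 (-0.07 to 0.21). Rab11a lay between 10.70 and 10.78 on all 8 arrays. Rab25, the epithelial relative of Rab11, gave 0.15 (adjusted p = 0.256), Rab17, another epithelial Rab, 0.08, and Rab4a, Rab4b, Rab14 and Rab35 lay between -0.14 and 0.05.

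Of 6 early endosome genes 2 rose, 1 fell and 3 did not pass. Rab21, known for the uptake of integrins, read 9.73, 9.79, 9.76 and 9.87 on the knockout-labelled arrays and 10.04, 10.01, 10.01 and 10.09 on the wildtype arrays, with no overlap. Its log2 fold change was -0.25 (SE 0.06, adjusted p = 0.0133, limma), and the call held in all 8 fits without 1 array. A dimmer probe set gave -0.19 and did not pass. Rab31 and Rab22a, which are close relatives of Rab5, gave the opposite direction. Rab31 read 9.16, 9.18, 9.34 and 9.39 against 9.10, 9.03, 8.88 and 8.95, or 0.27 higher on the log2 scale (SE 0.08, limma adjusted p = 0.0351), with an adjusted p of 0.0782 with the replicate block. The Rab31 call was lost without knockout-labelled replicates 3 (adjusted p = 0.0854) or 4 (0.091) and without wildtype replicates 2 (0.0678), 3 (0.0987) or 4 (0.0909). Its dimmer probe set gave -0.08 and did not pass, and the mean of both sets gave 0.10 (adjusted p = 0.368).

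Rab22a read 8.75, 8.77, 8.90 and 8.95 against 8.61, 8.59, 8.52 and 8.70, or 0.24 higher (SE 0.07, limma adjusted p = 0.0411). Both genes were without overlap by a narrow margin. The Rab22a call was lost without knockout-labelled replicates 3 (adjusted p = 0.0962) or 4 (0.105) and without wildtype replicates 1 (0.0771), 2 (0.101) or 3 (0.111). Of its 3 other probe sets 1 was called higher (0.43). Its brightest probe set can read more than 1 transcript, and with such sets left out the gene gave 0.18 and lost the call (adjusted p = 0.0601). Rab5a, Rab5b and Rab5c, the core GTPases of early endosome fusion, gave -0.13, 0.01 and 0.03 and did not pass.

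Of 8 genes of late endosomes, lysosomes and related organelles 2 rose, 2 fell and 4 did not pass. Rab32 and Rab38, which together sort cargo to melanosomes and other lysosome-related organelles, moved in opposite directions. Rab32 read 7.50, 7.29, 7.82 and 7.59 on the knockout-labelled arrays and 7.17, 7.04, 7.21 and 7.07 on the wildtype arrays, or 0.43 higher (SE 0.11, limma adjusted p = 0.0196). Rab38 read 9.20, 9.42, 9.52 and 9.43 against 9.52, 9.70, 9.70 and 9.81, giving -0.29 (SE 0.09, limma adjusted p = 0.0448). The groups of Rab38 met at 9.52, where knockout-labelled replicate 3 lay just under wildtype replicate 1. The Rab32 call was lost without knockout-labelled replicate 4 (adjusted p = 0.0504) and wildtype replicates 2 (0.06) or 4 (0.0565). The Rab38 call held only without knockout-labelled replicate 3 or wildtype replicate 1, and its adjusted p was up to 0.122 in the other 6 fits, 0.052 with arrays centred on their medians and 0.0543 with the neuron list mean as a covariate.

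Rab7b, which acts from late endosomes towards the Golgi, read 5.79, 5.86, 5.90 and 5.83 against 5.62, 5.31, 5.66 and 5.56, or 0.31 higher (SE 0.08, limma adjusted p = 0.0267). The call was lost without knockout-labelled replicates 3 (adjusted p = 0.0664) or 4 (0.0547) or wildtype replicate 4 (0.0607), and its 2 other probe sets gave -0.08 and 0.21. The mean of the 3 sets gave 0.15 (adjusted p = 0.139). Rab7, the central GTPase of late endosomes and lysosomes, read 10.66, 10.71, 10.68 and 10.68 against 10.69, 10.67, 10.61 and 10.72. It gave 0.01 with a 95% interval of -0.11 to 0.13. Rab9, Rab9b and Rab24 gave 0.07, 0.01 and 0.03.

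Of the 3 genes tied to cilia and hedgehog signalling 1 fell. Rab28, found at the base of cilia and in photoreceptors, read 10.04, 10.04, 10.03 and 10.12 against 10.22, 10.27, 10.24 and 10.26, giving -0.19 (SE 0.05, limma adjusted p = 0.0335) with no overlap. Blocking on replicate number gave an adjusted p of 0.0603. When single arrays were left out, the call held only in the absence of knockout-labelled replicate 4 and was lost in the other 7 fits (adjusted p up to 0.0985). Its dimmer probe set gave -0.39 and did not pass. Rab23, a negative regulator of hedgehog signalling, gave 0.17 (adjusted p = 0.163), and Rab34, which acts in ciliary vesicle formation, gave -0.07.

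Among the 7 other or less known members 1 rose and 6 did not pass. Rab29, which acts at the Golgi and on lysosomes with the kinase Lrrk2, read 7.92, 7.82, 8.17 and 8.12 on the knockout-labelled arrays and 7.32, 7.37, 7.36 and 7.54 on the wildtype arrays. The groups stood apart. Rab29 gave 0.61 on the log2 scale (SE 0.09, adjusted p = 0.00129, limma), or 1.53-fold, and the call held in all 8 fits without 1 array (0.56 to 0.67). Rab36 gave -0.25 with an adjusted p of 0.0507, just short of a call. Both of its dimmer probe sets were called lower (-0.35 and -0.58), and the mean of its probe sets gave -0.39 (adjusted p = 0.00521). Rab42 gave -0.31 (adjusted p = 0.084), and Rab19, Rab40b, Rab40c and Rab44 lay between -0.02 and 0.16.

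Different probe sets of a gene agreed only in part. Of the 15 called genes, 10 had further probe sets, 20 in number. In 3 genes (Rab2a, Rab22a and Rab30) at least 1 of these was called in the same direction, and in 0 genes was one called in the opposite direction (limma over all 34945 probe sets with 1 gene, of which 15.5% were called). In that wider fit the brightest probe sets of Rab8b, Rab22a, Rab28 and Rab38 did not pass. Of 53 further probe sets of genes not called, 3 were called higher and 4 lower, the 2 of Rab36 included. Dim sets of Rab12 (0.53) and Rab1a (0.34) were among the higher ones and one of Rab11b (-0.49) among the lower ones, while the brightest set of each of these genes lay within 0.12 of 0.

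**Figure D3:**
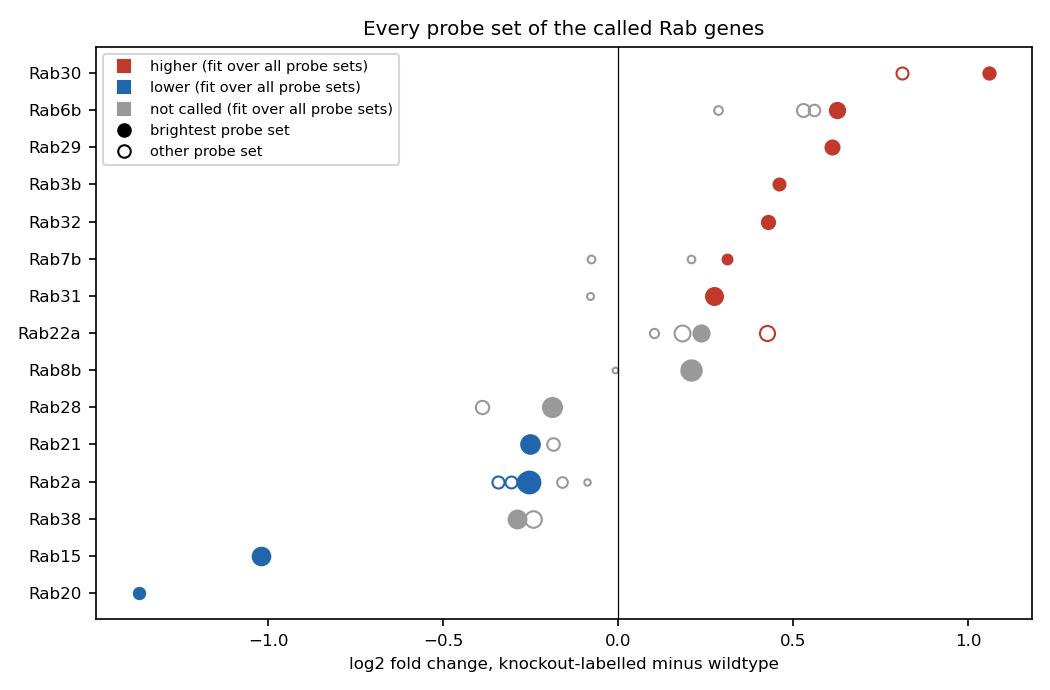
Log2 fold change of every probe set of the 15 called Rab genes. Filled points are the brightest probe set of a gene, open points the others, with larger points for brighter sets; colour gives the call in a fit over all probe sets with 1 gene. The sets of Rab30 and Rab2a share a direction, while 1 dim set each of Rab7b, Rab31 and Rab8b lies at or just under 0.

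Several Rab genes varied from array to array alongside markers of a cell type. The pairs given here were chosen after their values were seen. The mean of the 13 neuron markers was 8.19, 9.15, 7.69 and 8.15 on knockout-labelled replicates 1 to 4 and 8.92, 8.42, 7.55 and 7.38 on wildtype replicates 1 to 4. Rab3c and Rab33a were highest on the same array of each group as these markers, knockout-labelled replicate 2 and wildtype replicate 1, and lowest on knockout-labelled replicate 3 and wildtype replicate 4. With the neuron list mean as a covariate, added after seeing the data, the SE of Rab3c went from 0.46 to 0.17 and its log2 fold change from 0.17 to -0.09 (limma adjusted p = 0.775). The SE of Rab33a went from 0.29 to 0.10, with a log2 fold change of 0.23 (adjusted p = 0.147). Rab6b gave 0.53 in that fit and was called (adjusted p = 0.00713). Among the 15 called genes, Rab38 alone lost its call there.

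The mean of the 11 macrophage markers was 8.59, 8.53, 9.07 and 8.99 on knockout-labelled replicates 1 to 4 and 8.17, 8.13, 8.01 and 8.22 on the wildtype replicates. Over the 4 knockout-labelled arrays Rab29 and Rab32 took the same order as this mean, each with replicate 3 highest and replicate 2 lowest. Over the wildtype arrays they did not: the macrophage mean was lowest on replicate 3, where Rab32 was highest, and Rab29 was lowest on replicate 1. The stroma and mural cell mean, at 10.80, 10.57, 10.80 and 10.59 on the knockout-labelled arrays, was highest on replicates 1 and 3 and lowest on replicate 2. For Rab20 the lowest knockout-labelled array, replicate 1, was also the one with the lowest mean of epithelium markers (10.14, against 10.31 to 10.35 on the other 3). Over the wildtype arrays the epithelium mean was lowest on replicate 1 (11.13), while Rab20 was lowest on replicate 2 (7.01). The part of these cell type markers in the Rab results was not tested beyond the neuron covariate. No marker was at 0, since RMA values have no zero.

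**Figure D4:**
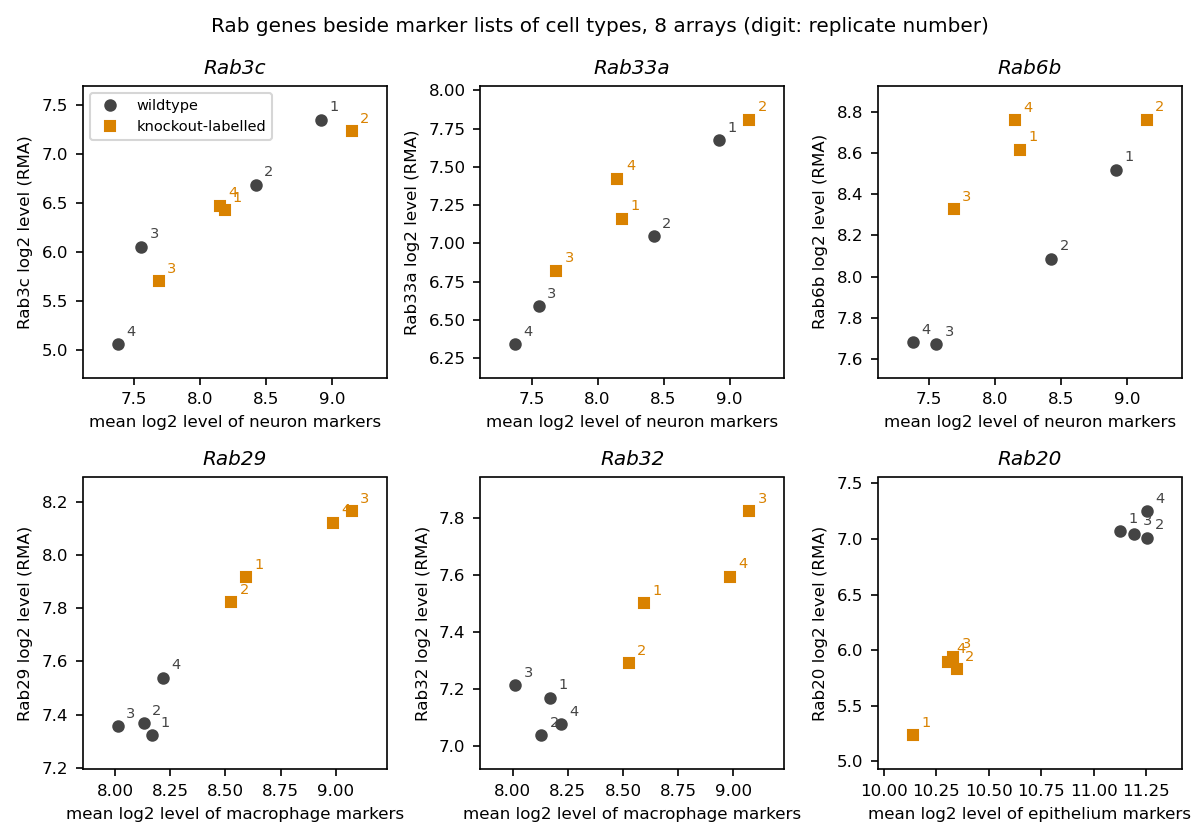
Log2 level of 6 Rab genes (vertical axes) against the mean log2 level of a marker list (horizontal axes) on each of the 8 arrays; digits are replicate numbers, dark circles wildtype and orange squares knockout-labelled arrays. Rab3c and Rab33a follow the neuron markers inside both groups, while the 2 groups stay apart for Rab29, Rab32 and Rab20.

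Regulators and effectors of Rab proteins were listed together with 6 Rab-like genes and 17 Arf, Arl and Sar GTPases. Of these 158 measured genes in 8 lists, 29 were lower and 8 higher (23.4% called, against 19.6% of all genes, of which 11.7% were lower and 7.84% higher). The number higher was 17 without knockout-labelled replicate 2, 4 without knockout-labelled replicate 3 or wildtype replicate 3, and 5 without knockout-labelled replicate 4 or wildtype replicates 2 or 4. It was 15 with arrays centred on their medians, with 28 lower. Of the 158, 125 lay above the median level of all genes, where 28.3% of all genes were called, against 10.8% at or under it. The common machinery of prenylation and recycling from the membrane gave 0 calls among 7 genes (limma, with 1 at an unadjusted p under 0.05, Chml). Gdi2, the GDP dissociation inhibitor, gave 0.02 and Chm, the Rab escort protein, -0.08.

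Effectors in secretion and recycling had 7 of 24 lower, 2 higher and a median log2 fold change of 0.07. Their share called was 37.5%, against 19.6% of all genes and 28.3% of those above the median level. Myrip, which links Rab27 to myosin motors, read 6.14, 5.80, 6.67 and 6.29 on the knockout-labelled arrays and 8.85, 8.48, 8.47 and 8.67 on the wildtype arrays, a log2 fold change of -2.39 (adjusted p = 2.17e-05, limma). Myo5b, the motor of Rab11 recycling endosomes, read 5.89, 6.52, 6.45 and 6.30 against 8.54, 8.50, 8.36 and 8.70, a log2 fold change of -2.24 (adjusted p = 1.08e-05). Both effectors lay far lower on every knockout-labelled array, while the genes of their Rab partners, Rab27a, Rab27b, Rab11a and Rab11b, were not called. Over all arrays Rab27a lay between 4.57 and 5.16 and Rab27b between 5.55 and 6.08, under the median level of all genes, 7.29. For these 2 dim genes the missing call does not show an unchanged level. Rph3al, the Rab effector Noc2 of secretory granules, changed by -0.68 and Rab11fip4, an effector of Rab11, by -0.40. The synaptotagmin-like Rab27 effectors Sytl2 and Sytl4 rose by 0.66 and 0.46.

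Effectors of early and late endosomes had 7 of 21 lower and 0 higher, with a median of -0.04. The share called was 33.3%, against 19.6% of all genes and 28.3% of those above the median level. Rilp, which links Rab7 on late endosomes to dynein, read 7.33, 7.24, 7.60 and 7.55 against 8.86, 9.03, 8.96 and 9.27, a log2 fold change of -1.60 (adjusted p = 1.84e-05, limma). Fyco1, which links Rab7 to kinesin, changed by -0.56 and Osbpl1a, a sterol-binding Rab7 effector, by -0.45. Plin3, known as a Rab9 effector and a lipid droplet coat protein, changed by -0.34. Rab7 itself, as given above, stayed within 0.13 of 0 by its interval.

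GTPase-activating proteins had 7 of 37 lower and 1 higher (21.6% called, against 19.6% of all genes), with a median of -0.01. Tbc1d2, which acts on Rab7, changed by -1.20, Tbc1d9 by -0.98, Tbc1d1, known for glucose transporter traffic, by -0.83 and Rabgap1l by -0.69. Tbc1d16 rose by 0.37. Exchange factors split evenly, with 3 of 32 higher and 3 lower (18.8% called). Rab3il1 and Rab3ip, the paired exchange factors for Rab8, changed in opposite directions. Rab3il1 rose by 0.79, from 7.87 ± 0.12 to 8.66 ± 0.19, and Rab3ip fell by 0.48, from 8.94 ± 0.05 to 8.46 ± 0.09 (SD, n = 4 each; limma adjusted p = 0.000559 and 0.000685). Rin2 and Rabgef1, exchange factors for Rab5, changed by -0.31 and -0.24, and Dennd6b and Sbf2 rose by 0.30 and 0.23.

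Effectors and tethers of the ER and Golgi had 2 of 14 lower, Uso1 (-0.31) and Gcc2 (-0.33), and 1 higher, Erc1 (0.21), with a median of -0.06. Among 6 Rab-like genes outside the symbol rule Ift22, a subunit of the intraflagellar transport complex, was lower (-0.41). The Arf, Arl and Sar GTPases, a neighbouring family of membrane traffic, had 2 of 17 lower (Trim23, -0.39, and Arf3, -0.23) and 1 higher (Arl15, 0.21). Called shares of these lists were, in this order, 21.4%, 16.7% and 17.6%, against 19.6% of all genes. In the same arrays the epithelium and cilia markers were lower, and their part in the falls of the effector and regulator genes was not tested.

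**Figure D5:**
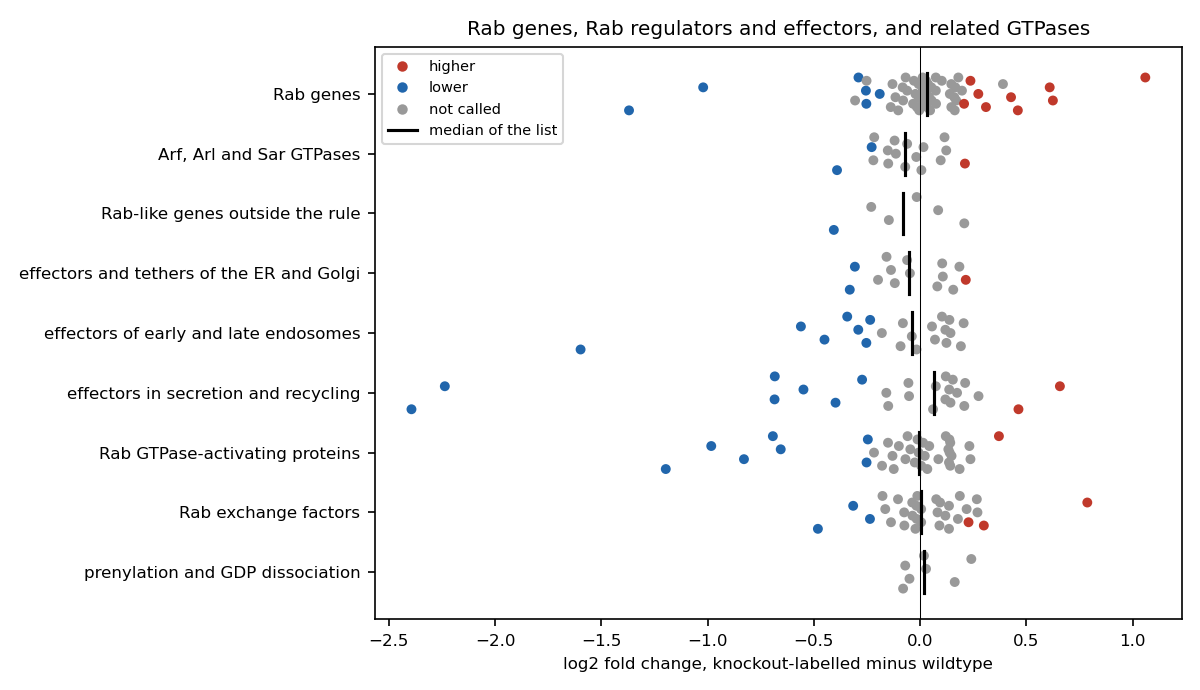
Log2 fold changes (horizontal axis) of genes in 8 lists of Rab regulators, effectors and related GTPases, with the 59 Rab genes in the top row; each point is a gene, coloured by its call, and the black line is the list's median. Points far to the left are Myrip and Myo5b (-2.39 and -2.24), Rilp (-1.60), Rab20 in the top row (-1.37) and Tbc1d2 (-1.20). The list medians lie between -0.08 and 0.07.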

How the data were processed

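The authors deposited a log2 value for each probe set, produced by RMA per the submitters' processing notes; no RMA version was stated. Of 45101 probe sets, 34945 had 1 gene in the platform annotation, and the brightest by its mean over 8 arrays stood for each of 18193 genes. Groups were compared in R 4.3.3 by limma 3.58.1 (linear fit with eBayes, genotype as the only term, two-sided, Benjamini-Hochberg over all genes, adjusted p under 0.05). Intervals are 95% intervals from the same fit. The labels say biological replicates without naming embryos or litters, so what 1 sample stands for is unknown. The p-values set the group difference against the spread between these samples, and the 4 arrays per group limit the precision. Across genes, deviations from the group mean correlated between arrays with the same number at 0.131, 0.232, 0.160 and 0.223, each over 0.1, so an alternative fit used the number as a block. Arrays with different numbers correlated at -0.296 to 0.294, a range that holds all the same-number values. The same-number values were all positive, however, while the others had both signs. No label states a pairing, and whether there was one was not tested.

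The members, gene lists and roles were chosen with earlier results of these data known, and Rab29 was moved from the list of Rab-like genes to the members by the symbol rule. Array by array values are given for up to 8 called members with the largest rise and 8 with the largest fall, for other genes of their numbered groups and for Rab8b; from each pathway list up to 4 called genes with the smallest p in each direction were named. Rab genes named beyond these, the pairs with cell type markers and the printed promoters were chosen after their values were seen. Alternatives were the replicate block, leaving out each array, the mean of probe sets, no shared probe sets, genes above the median level, centring, array weights, a trended robust prior, other thresholds and, added after seeing the data, the neuron list mean as a covariate. The procedure was tested on simulated data. Protein sequences were not used here.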

Additional observations from a re-analysis of the deposited data

Results flagged for a closer look

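One array lay far from the other 3 of its group in 11 of 118 groups of Rab values (59 genes in each of 2 groups), by the gap to its nearest neighbour as a share of the group's range, where a share above Dixon's 95% critical value for 4 samples was required and chance gives about 1 in 20. Among genes that were called, Rab20 on knockout-labelled replicate 1 was low (share 0.835, 5.23 log2 units), Rab28 on knockout-labelled replicate 4 was high (0.958, 10.12) and Rab2a on wildtype replicate 4 was low (0.952, 11.41). Among genes that were not called, knockout-labelled replicate 2 was high for Rab3a (0.907, 10.14) and low for Rab23 (0.854, 7.57). Knockout-labelled replicate 3 was high for Rab40b (0.891, 7.39) and Rab5c (0.933, 10.68) and low for Rab18 (0.842, 10.18). Wildtype replicate 2 was low for Rab24 (0.882, 8.88) and high for Rab39 (0.900, 3.69), and wildtype replicate 3 was low for Rab11a (0.901, 10.70). The ranges of Rab11a, Rab5c, Rab24 and Rab28 in these groups were all under 0.1 log2 units. The neuron marker mean was also highest on knockout-labelled replicate 2, as Rab3a was.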

How the results depend on the processing

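Rab15, Rab20, Rab21, Rab29, Rab30 and Rab3b kept their call in all 8 fits without 1 array and with the replicate block. Rab15 and Rab29 kept it in each of 19 alternatives and Rab20 and Rab30 in each of the 18 that measured them. Over those 8 fits the Rab genes called higher ranged from 3 to 8 (9 with all arrays), those called lower from 3 to 6 (6), and the regulator and effector genes from 4 to 17 higher (8) and from 24 to 28 lower (29). At an adjusted p under 0.01, 3 Rab genes were higher and 2 lower, and in the lists 4 genes were higher and 22 lower. With a fold change of at least 1.5 as well as the test, 3 were higher and 2 lower, and in the lists 2 were higher and 10 lower. List genes called higher numbered 13 over genes above the median level, 15 with arrays centred on their medians, 13 with array weights and 18 at an adjusted p under 0.1. List genes called lower numbered 29, 28, 30 and 35 in the same settings. Shares of all genes called under these settings are not given here. No named Rab gene that was called changed direction. With the replicate number as a block, 7 Rab genes were higher and 7 lower (median log2 fold change 0.031), with 12 calls shared, Rab28 (adjusted p = 0.0603), Rab31 (0.0782) and Rab8b (0.067) lost and Rab36 and Rab42 gained. With the mean of probe sets Rab31 (log2 fold change 0.10 in place of 0.27), Rab7b (0.15 in place of 0.31), Rab8b (0.10 in place of 0.21) and Rab38 (-0.27 in place of -0.29) lost their calls (adjusted p = 0.368, 0.139, 0.249 and 0.0748). Rab12 and Rab36 gained calls in that setting. The causes were not tested. Values near background cannot be separated from it, because detection calls are not analysed here.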
